A study of Mus musculus with 9 samples.

Results

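Alpha and beta tubulin transcripts were followed in adult mouse testis for these genes: *Tuba1a*, *Tuba1b*, *Tuba1c*, *Tuba3a*, *Tuba3b*, *Tuba4a*, *Tuba8*, *Tubb3*, *Tubb4b* and *Tubb5*. They were chosen by name, and all 10 members of this list were found among the 32035 genes to which the deposited transcripts could be assigned. Members were sorted by general knowledge of their expression, but earlier results of these data were known when members and lists were chosen. The groups are 4 isotypes sorted as germ-cell isotypes (*Tuba3a*, *Tuba3b*, *Tuba8* and *Tubb4b*) and 6 isotypes of somatic or broad expression (*Tuba1a*, *Tuba1b*, *Tuba1c*, *Tuba4a*, *Tubb3* and *Tubb5*). The group names are labels and do not mean that a gene is expressed only in such cells.

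The 9 samples were whole testes of male C57Bl6/N mice aged 15 weeks, 3 for each of 3 genotypes of *Kpna6*, the gene of the nuclear transport receptor importin alpha 7. Wildtype (WT) mice carried the intact gene. Mice labelled importin alpha7 deltaIBB/deltaIBB, written here *Kpna6* dIBB/dIBB, lacked the exon that encodes the importin beta binding domain, so that a truncated protein could still be made; the males are infertile. Mice labelled importin alpha7-/-, written here *Kpna6*-/-, carried a gene trap ahead of the coding exons; a testis-specific first exon downstream of the trap still gives full-length protein in germ cells, Sertoli cells lack the protein, and the males are fertile. The samples are numbered replicates, and the labels do not say how they relate to individual animals, so that P-values measure the spread between these samples. A whole testis holds many cell types, and in such samples fewer cells of a type and less RNA per cell cannot be told apart.

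Microtubules are polymers of dimers, each made of an alpha and a beta tubulin. Mammals have several genes for each, whose proteins are almost alike in the globular body and differ mostly in the acidic tail at the carboxyl end, where enzymes add and remove glutamate, glycine and, on alpha tubulin, the last tyrosine. In the testis, microtubules form the meiotic spindle, the tracks inside Sertoli cells, the somatic cells that nurse the germ cells, the manchette, a transient skirt around the nucleus of the elongating spermatid, and the axoneme of the sperm tail. *Tuba3a* and *Tuba3b* encode the alpha tubulin known as testis-specific, *Tubb4b* the main beta tubulin of axonemes, and *Tubb3* a beta tubulin best known from neurons and also made by Sertoli cells.

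The coding ends of 5 members are shown because the isotypes differ most there. Each is the last 60 bases of the coding sequence, stop codon included, from the GENCODE M21 transcripts on GRCm38. The capitals mark in-frame GAA and GAG codons, which encode glutamate.
Tuba3a: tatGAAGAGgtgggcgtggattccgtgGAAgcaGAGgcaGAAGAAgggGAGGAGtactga
Tuba8: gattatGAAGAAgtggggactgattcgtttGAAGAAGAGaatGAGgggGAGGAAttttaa
Tuba4a: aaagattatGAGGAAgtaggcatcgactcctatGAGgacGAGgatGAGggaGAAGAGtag
Tubb4b: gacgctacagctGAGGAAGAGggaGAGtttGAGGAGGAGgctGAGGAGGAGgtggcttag
Tubb3: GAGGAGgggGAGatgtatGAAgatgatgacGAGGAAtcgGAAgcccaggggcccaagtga

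These ends lie at chr6:125278358-125278417 (minus strand) for *Tuba3a* and chr6:121226020-121226079 (plus strand) for *Tuba8*. Those of *Tuba4a*, *Tubb4b* and *Tubb3* lie at chr1:75215622-75215681 (minus strand), chr2:25222308-25222367 (minus strand) and chr8:123421623-123421682 (plus strand). All are exonic and coding. The end of *Tuba3b*, at chr6:145621328-145621387 (plus strand), had the same letters as that of *Tuba3a*. Glutamate codons numbered 8 in *Tuba3a* and in *Tuba8*, 7 in *Tuba4a* and in *Tubb3*, and 10 in *Tubb4b*. A tyrosine codon (tac) stood before the stop in *Tuba3a* and *Tuba3b*, whereas *Tuba8* ended in ttt, a phenylalanine codon, and *Tuba4a* in gag, a glutamate codon. The end shown for *Tuba4a* is that of its full-length model, which had 1.86 TPM ± 0.25 (SD, n = 3) in WT. The most abundant model of the gene ends before it, while models with means of 34.2 and 30.7 TPM in WT extend across its position.

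Likeness of the genes limits how well reads can be assigned to a single isotype. *Tuba3a* and *Tuba3b* differed at 41 of 1353 coding bases (96.97% identical), and *Tuba1a* and *Tuba1b* at 23 of 1356 (98.30% identical). Reads had been assigned by matching short words of the read to the transcripts, and the share of the 31-base words of a member's coding transcripts that occurred in no other gene was therefore counted. It was lowest for *Tuba1a* (21.4%), *Tuba1b* (24.8%), *Tubb4b* (29.6%) and *Tuba1c* (36.1%). It was 54.0% for *Tuba3a*, 61.3% for *Tuba3b* and 58.7% for *Tuba4a*, and 96.0% to 98.3% for *Tubb5*, *Tubb3* and *Tuba8*. The levels of *Tuba1a*, *Tuba1b* and *Tuba1c* relative to each other, and of *Tuba3a* relative to *Tuba3b*, are thus less certain than those of *Tubb3*, *Tubb5* and *Tuba8*. *Tubb4b* shared 854 words with its processed pseudogene *Tubb4b-ps1*, and *Tuba4a* shared 1349 with *Stk16*, a kinase gene that overlaps its end on the opposite strand in libraries that did not keep strand.

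**Figure D1:**
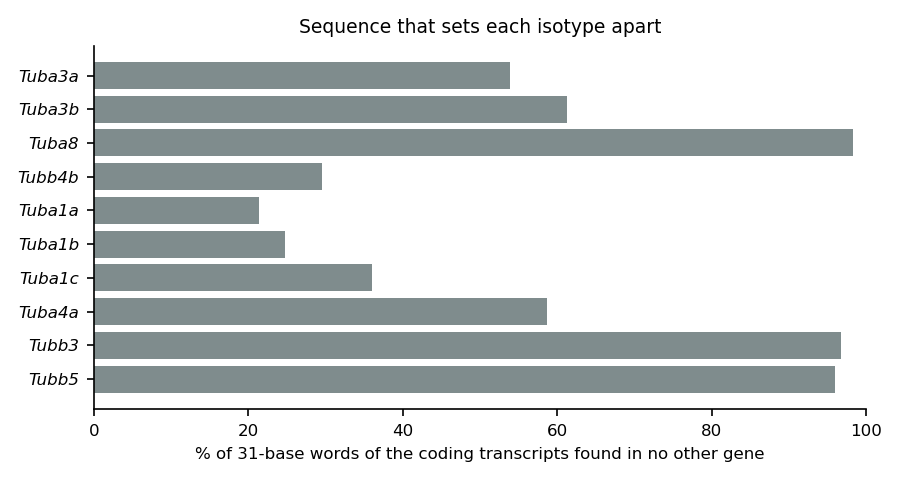
Share of the 31-base words of each member's coding transcripts (horizontal axis, %) that occur in no other gene of the transcript set, 1 bar per gene. *Tuba1a*, *Tuba1b*, *Tubb4b* and *Tuba1c* lie below 40%, and *Tuba8*, *Tubb3* and *Tubb5* above 95%.

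Between 24859751 and 31484692 estimated counts per sample fell on genes, and the 10 members took 0.372% to 0.415% of them. The least abundant member, *Tubb3*, had 694 to 1597 counts per sample, and *Tubb4b*, an abundant one, had 28834 to 36860. *Kpna6* itself had normalized CPM (counts scaled to the size of the library) of 201, 325 and 332 in WT, 81.1, 85.5 and 81.9 in *Kpna6* dIBB/dIBB, and 247, 249 and 261 in *Kpna6*-/- testes. The gene was thus low in every *Kpna6* dIBB/dIBB sample (log2 fold change against WT -1.79 ± 0.15 (SE), edgeR adjusted P = 1.94e-05), and the *Kpna6*-/- samples lay inside the WT range. WT replicate 1 had the lowest *Kpna6* of the WT samples. Without it the same number of members passed the test in each direction in both comparisons with WT. Adjusted P values are those of the quasi-likelihood test of edgeR, by the Benjamini-Hochberg method over all genes past a filter on low counts. Levels of different genes were ordered in TPM, a transcript abundance that takes length into account. Whether the samples of genotypes overlapped is given as a description, and the share of all genes without overlap was not counted. The share of all genes with an unadjusted P below 0.05 was not counted either.

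In WT testes the germ-cell isotypes, with *Tubb4b* counted among them, made up 88.7% ± 0.1 (SD, n = 3) of the summed TPM of the 10 members. *Tuba3a* was the most abundant member with 995, 1145 and 1126 TPM. *Tubb4b* followed with 1019, 1010 and 1048 TPM, inside the range of *Tuba3a*, and *Tuba3b* with 791, 885 and 888 TPM. *Tuba3b* lay below both other genes without overlap. *Tuba4a*, an alpha tubulin known from muscle, platelets and testis, had 177 TPM ± 21.4 (SD), and *Tuba8* 144 TPM ± 18.6. The ranges of *Tuba4a* and *Tuba8* overlapped. The *Tuba4a* value sums several partial transcript models, of which a model of 782 bases carried 103 TPM ± 12.9, so that its place beside *Tuba8* is uncertain. The broad isotypes *Tuba1c*, *Tuba1a* and *Tuba1b* followed with means of 63.9, 58.4 and 52.8 TPM, and *Tubb5* and *Tubb3* were lowest with 25.1 and 20.4 TPM. From *Tuba8* downward no neighbours in this order overlapped in WT.

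The order changed in *Kpna6* dIBB/dIBB testes below the 3 abundant germ-cell genes. *Tuba3a*, *Tubb4b* and *Tuba3b* kept the top places with 1189 ± 20.95, 1124 ± 24.0 and 911 ± 26.7 TPM. *Tuba8* (119 ± 7.97 TPM) and *Tuba4a* (115 ± 4.17 TPM) overlapped. *Tuba1a* (92.4 ± 1.68 TPM) and *Tuba1b* (76.3 ± 1.88 TPM) stood above *Tuba1c* (57.8 ± 5.71 TPM), the reverse of their order in WT, and *Tubb5* and *Tubb3* overlapped at 44.0 ± 1.14 and 42.8 ± 5.14 TPM. In *Kpna6*-/- testes the order was that of WT, from *Tuba3a* at 1092 ± 30.7 TPM to *Tubb3* at 25.9 ± 2.21 TPM. *Tuba1c* overlapped *Tuba1a*, *Tuba1a* overlapped *Tuba1b*, and *Tubb5* overlapped *Tubb3*.

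The comparison of *Kpna6* dIBB/dIBB with WT testes asked how tubulin transcripts stood where importin alpha 7 lacks its importin beta binding domain in all cells. The 3 abundant germ-cell isotypes did not differ detectably, and every member of the somatic and broad group did. *Tubb3*, *Tubb5*, *Tuba1a* and *Tuba1b* were higher in *Kpna6* dIBB/dIBB testes, by 1.34- to 1.92-fold. *Tuba4a*, *Tuba8* and *Tuba1c* were lower, at 0.597 to 0.830 of the WT level. Of these, *Tuba4a* and *Tuba1c* had been sorted as somatic or broad, yet went the same way as the germ-cell isotype *Tuba8*. Of all 18797 genes tested, 17.7% were higher and 18.9% lower, beside 4 members higher and 3 lower of 10; the difference between these shares was not tested.

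**Figure D2:**
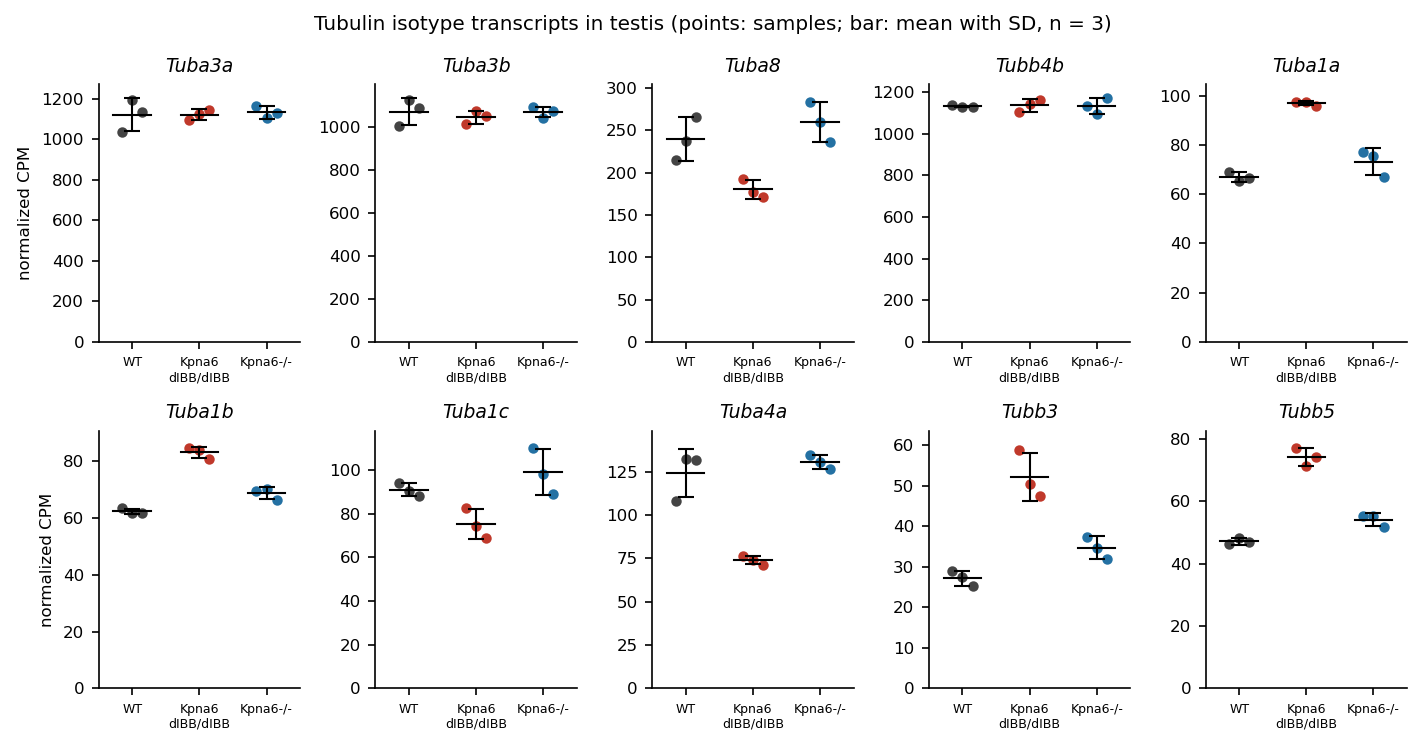
Normalized CPM (vertical axis, linear, from 0, own scale per gene) of the 10 members in the 3 genotypes. Points are samples and bars the mean with SD (n = 3). *Tubb3*, *Tubb5*, *Tuba1a* and *Tuba1b* lie above every WT and *Kpna6*-/- sample in *Kpna6* dIBB/dIBB, *Tuba4a*, *Tuba8* and *Tuba1c* lie below, and *Tuba3a*, *Tuba3b* and *Tubb4b* overlap in all genotypes.

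Among the germ-cell isotypes, *Tuba3a* had normalized CPM of 1036, 1196 and 1133 in WT, 1093, 1128 and 1144 in *Kpna6* dIBB/dIBB and 1165, 1103 and 1129 in *Kpna6*-/- testes. *Tubb4b* had 1136, 1130 and 1130 in WT, 1102, 1145 and 1161 in *Kpna6* dIBB/dIBB and 1135, 1095 and 1173 in *Kpna6*-/-. For both genes and for *Tuba3b* the genotypes overlapped. Against WT the log2 fold changes in *Kpna6* dIBB/dIBB were 0.0031 for *Tuba3a* (95% interval -0.10 to 0.11), -0.03 for *Tuba3b* (-0.13 to 0.06) and 0.0086 for *Tubb4b* (-0.06 to 0.08), with edgeR adjusted P values of 0.967, 0.602 and 0.852.

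These 3 values depend on the scaling. The markers of elongating spermatids include the protamine genes *Prm1* and *Prm2*. They summed to 69726 to 79928 TPM in WT and 58041 to 66302 TPM in *Kpna6* dIBB/dIBB. TPM add up to the same total in every sample. Whether the difference in these markers accounts for the effect of the scaling was not tested. Scaled by library size alone, the median log2 fold change of all genes moved from 0.01 to 0.11 (5416 genes higher and 2326 lower, against 3327 higher and 3547 lower with TMM normalization). On that scale *Tubb4b* came to 0.11 (edgeR adjusted P = 0.0113), close to the median gene, and *Tuba3b* turned from -0.03 to 0.07 (edgeR adjusted P = 0.201).

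*Tuba8*, an alpha tubulin enriched in testis and muscle, stood apart from the other germ-cell isotypes. It had normalized CPM of 214, 238 and 266 in WT, 192, 177 and 171 in *Kpna6* dIBB/dIBB and 284, 260 and 236 in *Kpna6*-/- testes. All *Kpna6* dIBB/dIBB samples were below all others. The log2 fold change against WT was -0.41 ± 0.07 (SE, edgeR adjusted P = 0.0016), and the call was lost with limma on log2(TPM + 1) (-0.28, limma adjusted P = 0.0631).

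In the somatic and broad group, *Tubb3* rose most. Its normalized CPM were 28.9, 27.5 and 25.2 in WT, 58.8, 50.3 and 47.4 in *Kpna6* dIBB/dIBB and 37.4, 34.7 and 31.8 in *Kpna6*-/- testes. The 3 genotypes did not overlap, with WT lowest and *Kpna6* dIBB/dIBB highest. The log2 fold change of *Kpna6* dIBB/dIBB against WT was 0.94 ± 0.08 (SE, 95% interval 0.76 to 1.13, edgeR adjusted P = 2.34e-05). The authors stained beta-III tubulin, the protein of *Tubb3*, and found its organization in Sertoli cells of both mutant lines undisturbed. That observation concerns the arrangement of the protein and not the level of its RNA.

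*Tubb5*, the widely expressed beta tubulin, followed the same order. It had normalized CPM of 46.2, 48.3 and 47.0 in WT, 77.0, 71.4 and 74.3 in *Kpna6* dIBB/dIBB and 55.4, 55.2 and 51.7 in *Kpna6*-/-. The log2 fold change of *Kpna6* dIBB/dIBB against WT was 0.66 ± 0.05 (SE, edgeR adjusted P = 1.39e-05). With 96.0% and 96.7% of their words in no other gene, *Tubb5* and *Tubb3* are the members of this group whose counts are least exposed to other isotypes.

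*Tuba1a*, *Tuba1b* and *Tuba1c*, the broadly expressed alpha tubulins, lie close together on chromosome 15. *Tuba1a* had normalized CPM of 69.1, 65.2 and 66.7 in WT and 97.4, 97.6 and 95.8 in *Kpna6* dIBB/dIBB, a log2 fold change of 0.54 ± 0.04 (SE, edgeR adjusted P = 1.61e-05). *Tuba1b* rose by 0.42 ± 0.04 (edgeR adjusted P = 5.85e-05). *Tuba1c* had 94.1, 90.3 and 88.3 in WT and 82.6, 74.4 and 68.8 in *Kpna6* dIBB/dIBB, a log2 fold change of -0.27 ± 0.06 (edgeR adjusted P = 0.0073). None of the 3 genes overlapped between these genotypes. Since the genes share most of their words, their counts were also summed, and the sum was higher in *Kpna6* dIBB/dIBB by 0.22 on the log2 scale (edgeR adjusted P = 0.00195). The fall of *Tuba1c* was no longer called with library size alone (-0.17, edgeR adjusted P = 0.0565) or with limma on log2(TPM + 1) (-0.14, limma adjusted P = 0.171).

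*Tuba4a* fell most of all members. It had normalized CPM of 108, 132 and 132 in WT, 76.1, 74.2 and 71.4 in *Kpna6* dIBB/dIBB and 134, 131 and 127 in *Kpna6*-/- testes. The *Kpna6* dIBB/dIBB samples lay below every other sample, and WT replicate 1 lay below the other WT samples. The log2 fold change against WT was -0.75 ± 0.08 (SE, edgeR adjusted P = 4.43e-05), and -0.84 without WT replicate 1. The decrease was seen in each of its 3 most abundant transcript models, whose mean TPM went from 103 to 67.2, from 34.2 to 22.0 and from 30.7 to 18.4. *Stk16*, the gene on the opposite strand, had a log2 fold change of 0.11 (edgeR adjusted P = 0.0935).

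**Figure D3:**
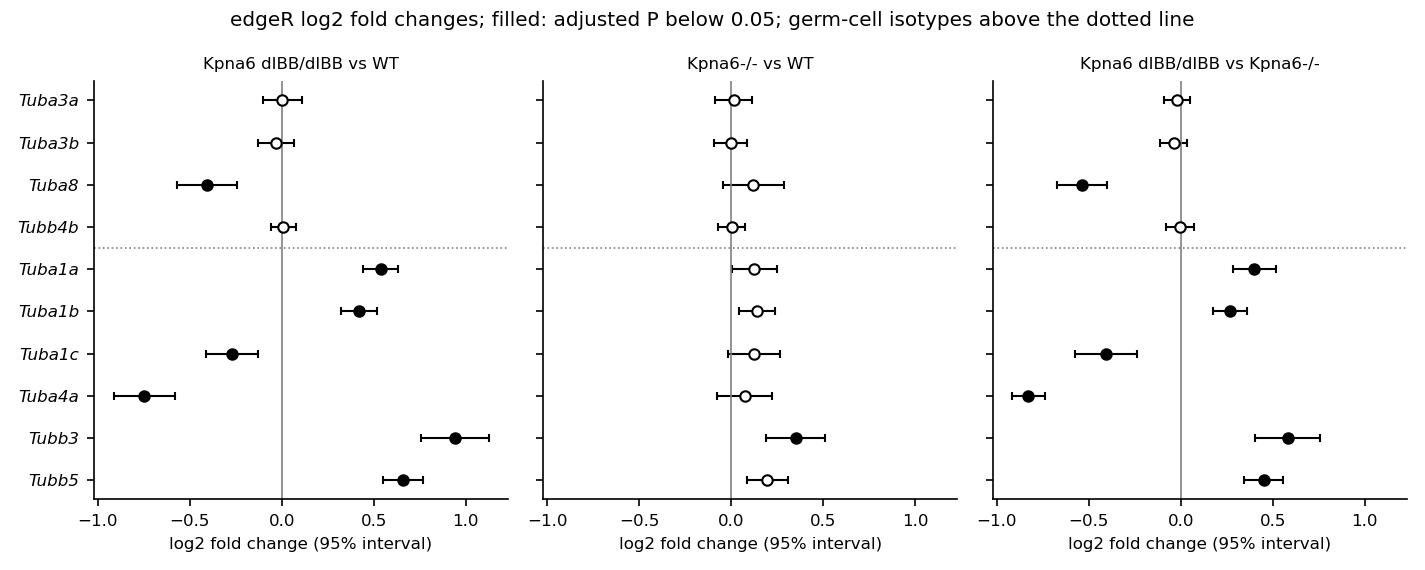
Log2 fold changes with 95% intervals (horizontal axis) of the 10 members (vertical axis) in the 3 comparisons, by edgeR; filled points have an adjusted P below 0.05 and germ-cell isotypes stand above the dotted line. In *Kpna6* dIBB/dIBB against WT and against *Kpna6*-/- the same 4 genes lie to the right and the same 3 to the left, and in *Kpna6*-/- against WT only *Tubb3* is filled.

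The comparison of *Kpna6*-/- with WT testes concerns animals whose germ cells still make the protein. *Tubb3* was the only member past the threshold, 1.27-fold higher (log2 fold change 0.35 ± 0.07 (SE), edgeR adjusted P = 0.0365), where 0.889% of 18681 genes were higher and 0.712% lower. The call was lost in 7 of 16 alternative analyses, with adjusted P values between 0.00518 and 0.212 over all 16, among them limma on log2(TPM + 1), a joint fit of all 9 samples (edgeR adjusted P = 0.0657) and 4 of the 6 analyses that left out a sample. Without WT replicate 2 or 3 the edgeR adjusted P was 0.0925 and 0.119, and without *Kpna6*-/- replicate 1 or 2 it was 0.180 and 0.128. At an unadjusted P below 0.05, 4 members were higher and 0 lower, a criterion for which the share of all genes was not counted. DESeq2 called 1 member higher and 0 lower, beside 226 genes higher and 203 lower of 16724. *Tubb5* (log2 fold change 0.20 ± 0.05, edgeR adjusted P = 0.0773) and *Tuba1b* (0.14 ± 0.05, edgeR adjusted P = 0.165) did not overlap between the genotypes but did not pass the test. The remaining members of the somatic and broad group had values between 0.07 and 0.13, and the 4 germ-cell isotypes between -0.0035 and 0.12.

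*Kpna6* dIBB/dIBB and *Kpna6*-/- testes were also compared directly. The same 4 members were higher, where 13.5% of 18752 genes were higher, and the same 3 lower, where 16.8% were lower. Log2 fold changes were 0.58 ± 0.08 for *Tubb3*, 0.45 ± 0.05 for *Tubb5*, 0.40 ± 0.05 for *Tuba1a* and 0.27 ± 0.04 for *Tuba1b*, with edgeR adjusted P values between 3.69e-05 and 0.000559. They were -0.83 ± 0.04 for *Tuba4a*, -0.54 ± 0.06 for *Tuba8* and -0.40 ± 0.08 for *Tuba1c*, with edgeR adjusted P values of 5.21e-07, 6.85e-05 and 0.00215. The call of *Tuba1c* was lost with limma on log2(TPM + 1) (-0.25, limma adjusted P = 0.0909). *Tuba3a*, *Tuba3b* and *Tubb4b* came to -0.02, -0.04 and -0.0043 and were not called, but were positive with library size alone (0.08, 0.06 and 0.10), where the median of all genes was 0.10 (4931 genes higher and 2016 lower, against 2523 and 3150 with TMM normalization) and *Tuba3a* and *Tubb4b* passed the test. The summed counts of *Tuba1a*, *Tuba1b* and *Tuba1c* differed by 0.08 (edgeR adjusted P = 0.271), so that the sum did not pass the test although each gene did; how shared reads were divided was not tested. The comparisons share samples, *Kpna6* dIBB/dIBB here and WT above, and are not independent of each other.

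Within the alpha and beta families, the shares of single isotypes are given as a description, without a test. *Tuba3a* and *Tuba3b* together made 79.6% ± 0.6 (SD) of the summed TPM of 8 alpha tubulin genes in WT, 82.0% ± 0.9 in *Kpna6* dIBB/dIBB and 78.6% ± 0.8 in *Kpna6*-/-. *Tuba4a* made 7.22% ± 0.39, 4.50% ± 0.15 and 7.42% ± 0.17. Its share was lower in every *Kpna6* dIBB/dIBB sample than in any other. Of the 8 beta tubulin genes, *Tubb4b* made 91.2% ± 0.2 in WT, 89.7% ± 0.6 in *Kpna6* dIBB/dIBB and 90.8% ± 0.5 in *Kpna6*-/-. *Tubb3* and *Tubb5* went from 1.82% ± 0.12 and 2.23% ± 0.02 in WT to 3.42% ± 0.46 and 3.51% ± 0.15 in *Kpna6* dIBB/dIBB, and stood at 2.30% ± 0.22 and 2.55% ± 0.15 in *Kpna6*-/-. The part of *Tuba3a* in the sum of *Tuba3a* and *Tuba3b* stayed between 55.7% and 57.0% in the 9 samples. The ratio of summed alpha to summed beta TPM was 2.17 ± 0.15 in WT, 2.04 ± 0.03 in *Kpna6* dIBB/dIBB and 2.19 ± 0.08 in *Kpna6*-/-, and the range of *Kpna6* dIBB/dIBB (2.01 to 2.06) overlapped that of WT (2.01 to 2.29) and lay below that of *Kpna6*-/- (2.11 to 2.25).

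**Figure D4:**
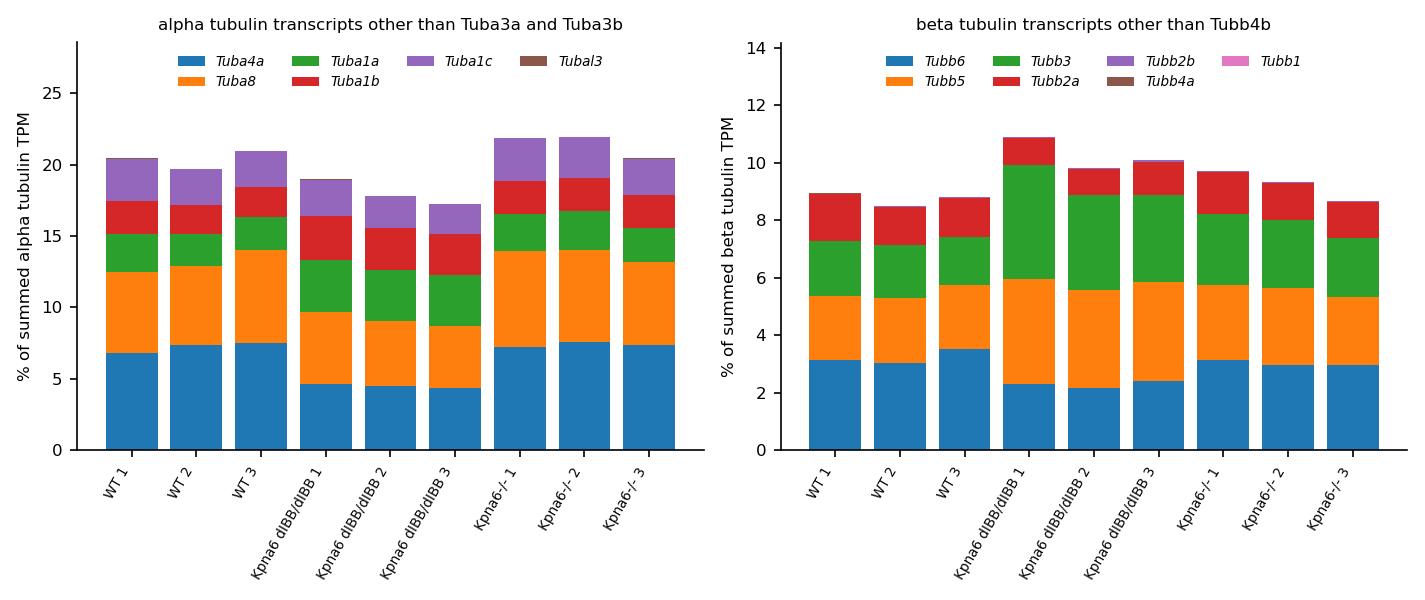
Percent of summed alpha (left) and beta (right) tubulin TPM (vertical axes, from 0) taken by the minor isotypes in each of the 9 samples (horizontal axis); the rest is *Tuba3a* and *Tuba3b* or *Tubb4b*. *Tuba4a* shrinks from 6.79% to 7.55% in WT to 4.34% to 4.64% in *Kpna6* dIBB/dIBB, and *Tubb3* widens from 1.68% to 1.92% to 3.04% to 3.94%.

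Of 10 other tubulin genes, 8 could be tested between *Kpna6* dIBB/dIBB and WT, and 4 were lower and 0 higher by edgeR and by DESeq2 (1 higher at an unadjusted edgeR P below 0.05), where 18.9% of all genes were lower and 17.7% higher. The beta tubulins *Tubb6* and *Tubb2a*, which are broadly expressed, had log2 fold changes of -0.47 ± 0.07 (edgeR adjusted P = 0.000633) and -0.47 ± 0.11 (edgeR adjusted P = 0.00774), opposite in sign to those of *Tubb3* and *Tubb5*. *Tubg1* and *Tubg2*, the gamma tubulins that nucleate microtubules, had -0.26 ± 0.08 (edgeR adjusted P = 0.0202) and -1.23 ± 0.27 (edgeR adjusted P = 0.00461). *Tubg2* was near the lower limit of detection, with 1.28 to 1.42 CPM in WT and 0.420 to 0.724 in *Kpna6* dIBB/dIBB. The epsilon and delta tubulins of centrioles, *Tube1* and *Tubd1*, had -0.17 and -0.11 and the alpha-like *Tubal3* 0.06, and none was called. *Tubb2b* came to 1.04 ± 0.41 (edgeR adjusted P = 0.069) at under 1 CPM, and *Tubb1* and *Tubb4a* were too low to be tested. In *Kpna6*-/- against WT none of the 7 testable genes was called by edgeR or DESeq2, or had an unadjusted edgeR P below 0.05, with log2 fold changes between -0.12 and 0.25.

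Newly made tubulin is folded by prefoldin, the chaperonin CCT and the tubulin cofactors. Of 21 genes of this list that could be tested, 3 were lower and 1 higher in *Kpna6* dIBB/dIBB than in WT, both smaller shares than the 18.9% and 17.7% of all genes, and the median log2 fold change was -0.03, against 0.01 over all genes. The CCT subunits *Cct2*, *Cct4* and the testis form *Cct6b* were the lower ones, with -0.15 ± 0.04, -0.13 ± 0.04 and -0.13 ± 0.04 (edgeR adjusted P = 0.012, 0.019 and 0.0285). *Tbcb*, a cofactor that takes up alpha tubulin, was the higher one at 0.16. Over the whole list the values ran from -0.16 to 0.30. In *Kpna6*-/- against WT none of the 21 was called by edgeR or DESeq2 (1 higher and 1 lower at an unadjusted edgeR P below 0.05).

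Of 28 genes tested for enzymes that modify tubulin, 18 were lower and 2 higher in *Kpna6* dIBB/dIBB than in WT, beside 18.9% and 17.7% of all genes, with a median log2 fold change of -0.18 against 0.01. The glycylases *Ttll10* and *Ttll8*, which add glycine, had normalized CPM of 328 to 358 and 287 to 315 in WT and of 237 to 241 and 196 to 209 in *Kpna6* dIBB/dIBB. Their log2 fold changes were -0.51 ± 0.04 (edgeR adjusted P = 1.55e-05) and -0.56 ± 0.05 (edgeR adjusted P = 1.61e-05), and neither overlapped between the genotypes. The higher ones were *Hdac6*, which removes acetyl groups from alpha tubulin (0.62 ± 0.05, edgeR adjusted P = 1.61e-05), and *Ttll12* (0.54 ± 0.09, edgeR adjusted P = 0.00102). *Ttl*, the tyrosine ligase, came to 0.44 ± 0.21 (edgeR adjusted P = 0.129). In *Kpna6*-/- against WT none of these 28 genes was called by edgeR or DESeq2 (0 higher and 5 lower at an unadjusted edgeR P below 0.05), and the median was -0.02.

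Of 18 genes of the manchette and of microtubule dynamics, 7 were lower and 1 higher in *Kpna6* dIBB/dIBB than in WT, beside 18.9% and 17.7% of all genes, with a median of -0.08. *Hook1*, a linker of the manchette, fell by 0.47 ± 0.03 on the log2 scale (edgeR adjusted P = 1.02e-05). *Clip1*, a protein of growing microtubule ends, fell by 0.53 ± 0.05 (edgeR adjusted P = 5e-05), and *Map7*, which stabilises microtubules, fell by 0.26 ± 0.04 (edgeR adjusted P = 0.000516). *Mapre1*, another protein of growing ends, was the higher one at 0.16 (edgeR adjusted P = 0.014), and *Mapre3* of the same family was lower at -0.30 (edgeR adjusted P = 0.000893). In the direct comparison of *Kpna6* dIBB/dIBB with *Kpna6*-/-, 6 of the 18 were lower and 0 higher by edgeR and DESeq2 (7 lower and 0 higher at an unadjusted edgeR P below 0.05), beside 16.8% and 13.5% of all genes, *Hook1* (-0.43), *Clip1* (-0.46) and *Mapre3* (-0.34) with the smallest adjusted P values.

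Markers of several testis cell types also differed between the genotypes. All 10 Sertoli cell markers, among them *Sox9*, *Wt1* and *Cldn11*, were higher in *Kpna6* dIBB/dIBB than in WT, where 17.7% of all genes were higher. Their median log2 fold change was 0.59, with a range of 0.34 to 1.35. The values of *Tubb3*, *Tubb5*, *Tuba1a* and *Tuba1b* lay inside that range. The summed level of the Sertoli cell markers was 407 to 431 TPM in WT, 710 to 788 in *Kpna6* dIBB/dIBB and 490 to 515 in *Kpna6*-/-. By quantitative PCR of adult testes, however, the authors found no significant difference in *Rhox5*, *Wt1* or *Cldn11*. *Cldn3*, which is not on the list used here, was lower in *Kpna6* dIBB/dIBB only. The PCR was scaled to *Gapdh* and covered a wider range of adult ages. The authors also counted fewer Sertoli cells in adults of both mutant lines. In *Kpna6*-/- against WT, all 10 Sertoli cell markers had positive values, with a median of 0.22. In that comparison 2 of them were called higher, where 0.889% of all genes were. All 10 markers of elongating spermatids (median -0.37, range -0.59 to -0.26) and all 8 of round spermatids (median -0.51, range -0.72 to -0.23) were lower in *Kpna6* dIBB/dIBB than in WT, where 18.9% of all genes were lower. The values of *Tuba8* and of *Tuba1c* lay inside both ranges. Of 8 markers of pachytene spermatocytes 1 was lower and 0 higher by edgeR (2 lower and 0 higher by DESeq2 and at an unadjusted edgeR P below 0.05), with a median of -0.02, near the values of *Tuba3a*, *Tuba3b* and *Tubb4b*. *Tuba4a* (-0.75) lay below the lowest spermatid marker. *Tuba4a* and *Tuba1c* thus had the direction of the spermatid markers and not that of the other members of their group, and over the 9 samples their log2(CPM + 1) ran with that of *Tuba8* (Pearson correlations of 0.950 and 0.892, as a description of samples that share the step between genotypes).

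For the other cell types only a part of the markers passed the test between *Kpna6* dIBB/dIBB and WT, although all 8 macrophage markers had positive values. Of 10 spermatogonium markers 3 were higher and 1 lower (median 0.24), of 8 Leydig cell markers 2 were higher (median 0.01), of 8 macrophage markers 3 were higher (median 0.37), and of 10 peritubular and endothelial markers 4 were higher and 1 lower (median 0.28). Of all genes, 17.7% were higher and 18.9% lower, and the difference between these shares was not tested. No marker of any list was at 0 in all samples. The values of *Tuba1a* and *Tuba1b* also lay inside the range of the macrophage markers (0.21 to 0.61). That of *Tubb5* lay inside the range of the Leydig cell markers (-0.60 to 0.91). Those of *Tuba8* and *Tuba1c* lay inside the ranges of the spermatogonium markers (-0.50 to 0.41) and of the peritubular and endothelial markers (-0.49 to 0.64). *Tubb3* lay above and *Tuba4a* below all of these ranges. The part of these cell types in the changes of the isotypes was not tested.

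**Figure D5:**
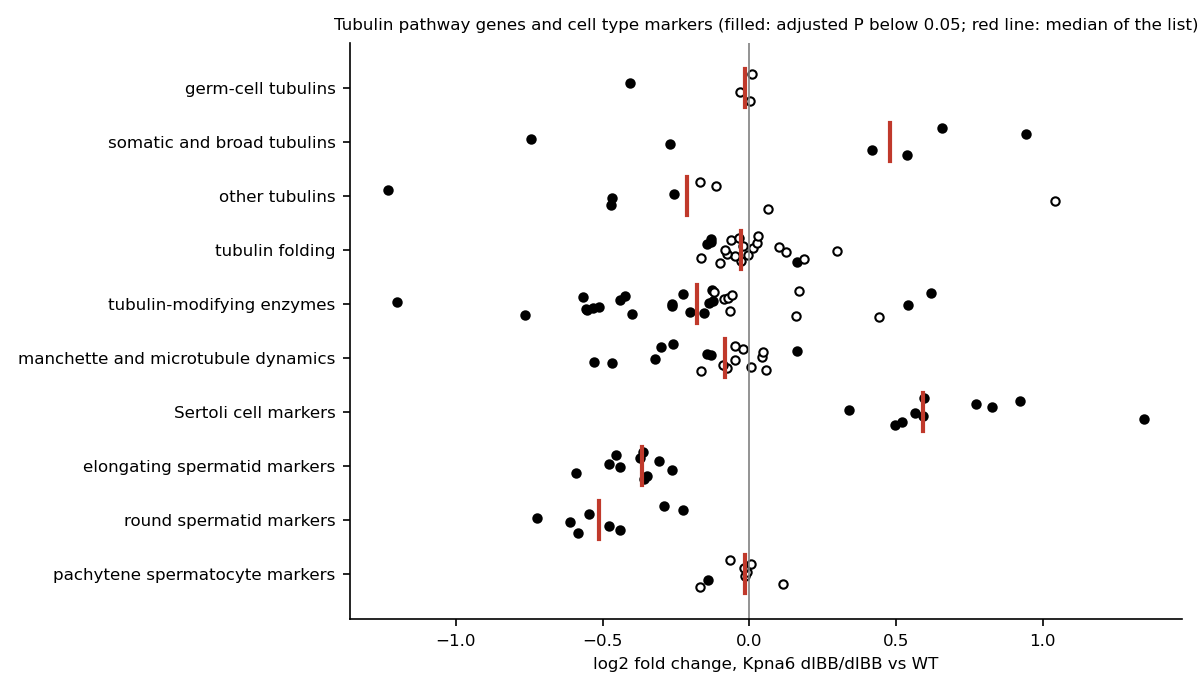
Log2 fold changes of *Kpna6* dIBB/dIBB against WT (horizontal axis) for the genes of 10 lists (vertical axis); each point is a gene, filled where the edgeR adjusted P is below 0.05, and red lines are medians. The somatic and broad isotypes have a median of 0.48 with 2 genes below 0, the germ-cell isotypes of -0.01, the Sertoli cell markers of 0.59 and the round spermatid markers of -0.51.

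Over the 9 samples, the genes whose levels ran most alike to those of *Tuba3a* and *Tuba4a* were looked up among 8968 genes with a mean of at least 10 TPM in WT, as a description. For *Tuba4a* they were *4930412O13Rik*, *Spert* and *Fam71b*, with Pearson correlations of log2(CPM + 1) of 0.996, 0.996 and 0.993. For *Tuba3a* they were *Atxn2l*, *Enkd1* and *Tuba3b*, with 0.923, 0.920 and 0.917. The *Tuba4a* values share the step between *Kpna6* dIBB/dIBB and the other genotypes, while *Tuba3a* varied mostly within genotypes, by 1036 to 1196 CPM in WT.

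*Tuba8*, *Tuba3a* and *Tuba3b* all lie on chromosome 6. Of the genes within 1 Mb that could be tested between *Kpna6* dIBB/dIBB and WT, 5 of 20 were higher and 4 lower around *Tuba8*, 13 of 47 higher and 9 lower around *Tuba3a*, and 1 of 15 higher and 4 lower around *Tuba3b*, where 17.7% of all genes were higher and 18.9% lower. In *Kpna6*-/- against WT, 3 of 49 were higher and 3 lower around *Tuba3a*, where 0.889% and 0.712% of all genes were. In that comparison 0 of 19 were higher and 0 lower around *Tuba8*, and 0 of 15 higher and 0 lower around *Tuba3b*. Neighbours and all genes were not compared by a test.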

How the data were processed

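RNA of 9 whole-testis samples (3 per genotype) was sequenced from poly(A)-selected libraries without strand information. The authors quantified transcripts with kallisto, version 0.45 per the labels' processing notes, with mm10 as the genome build; which release the transcripts came from is not given in the sources used here. The deposited files hold estimated counts and TPM for 96626 transcripts. Here 95301 of them were assigned to 32035 genes with GENCODE M21 (GRCm38) and summed per gene; the other 1325, without a match, were left out of tests and of library sizes. Sums were rounded to whole numbers and tested for each pair of genotypes (6 samples) with edgeR 4.0.16 (filterByExpr, TMM normalization, quasi-likelihood test, threshold 0.05 after Benjamini-Hochberg adjustment over all genes tested); normalized CPM are scaled over the 9 samples. DESeq2 1.42.0 and limma 3.58.1 (pseudocount 1 on TPM) served as alternatives, in R 4.3.3. The script was tested on simulated data. Estimated counts carry an assignment error beside counting error.

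The members and lists were chosen with earlier results of these data known. Named are all members and other tubulins, and, from the folding, modification and manchette lists, the 3 genes with the smallest adjusted P among called genes whose group mean reached 1 TPM in either genotype, and the 3 genes most correlated with the most abundant germ-cell member and with the most abundant somatic or broad member. Further genes were named after their values were seen, to account for counts or to give a sign beside them (*Tbcb*, *Ttll12*, *Ttl*, *Mapre1*, *Mapre3*, *Stk16*). Cell type markers served as lists. No protein sequences were used here.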

Additional observations from a re-analysis of the deposited data

How the results depend on the processing

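Of 480 fold changes of single members over the alternative analyses other than summing near-identical genes, 432 kept their direction and their side of the threshold, 11 lost a call, 2 gained one (*Tubb4b* against WT, 0.11 with library size alone and 0.13 with limma) and 35 changed sign. Of the last, 4 were past the threshold after the change, *Tuba3a* and *Tubb4b* against *Kpna6*-/- with library size alone and with limma; no call turned into its opposite. Counts of called members moved with limma on log2(TPM + 1), which left 1 member lower in *Kpna6* dIBB/dIBB than in WT and 0 higher in *Kpna6*-/- than in WT, with all 9 samples in one fit or length-scaled counts (0 higher in *Kpna6*-/-), and with near-identical genes summed (2 higher in *Kpna6* dIBB/dIBB than in *Kpna6*-/-, where fewer genes were tested). Leaving out a sample gave 0 to 1 member higher in *Kpna6*-/-. The cause of the other differences was not tested.

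The sign changes were in *Tuba3a*, *Tuba3b*, *Tubb4b* and, in 1 case, *Tuba4a*. For *Kpna6* dIBB/dIBB against WT, *Tuba3a* came to -0.0013 (DESeq2), -0.0014 (9 samples), -0.014 (summed with *Tuba3b*) and -0.0086 (protein-coding transcripts), *Tuba3b* to 0.066 (library size) and 0.093 (limma), and *Tubb4b* to -0.0033 (protein-coding transcripts) and -0.0034 (summed with its pseudogenes, chosen after seeing the data). For *Kpna6*-/- against WT, *Tuba3b* came to 0.0045 (library size) and 4.4e-06 (length-scaled counts), and *Tubb4b* to -0.0068 (limma) and -0.00031 (protein-coding transcripts). For *Kpna6* dIBB/dIBB against *Kpna6*-/-, *Tuba3a* came to 0.080 (library size) and 0.12 (limma), *Tuba3b* to 0.061 and 0.10, and *Tubb4b* to 0.096 and 0.14, and also to 0.0019 (no filter), 0.0021 (at least 5 counts in 3 samples) and 0.0099 (length-scaled counts). With a sample left out, the ranges were -0.055 to 0.043 (*Tuba3a*) and -0.0058 to 0.028 (*Tubb4b*) in the first comparison, -0.041 to 0.061 (*Tuba3a*), -0.049 to 0.032 (*Tuba3b*), -0.023 to 0.031 (*Tubb4b*) and -0.018 to 0.12 (*Tuba4a*) in the second, and -0.040 to 0.00010 (*Tuba3a*) and -0.030 to 0.020 (*Tubb4b*) in the third.

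The replicate numbers did not pair the samples (correlations of same-numbered samples between -0.055 and 0.080). With a replicate block, 4 members were higher and 3 lower in *Kpna6* dIBB/dIBB than in WT and than in *Kpna6*-/-, and 1 higher and 0 lower in *Kpna6*-/- than in WT. Over all genes, limma called 3925 higher and 1622 lower for *Kpna6* dIBB/dIBB against WT, 3794 and 1330 against *Kpna6*-/- (1667 higher by edgeR on length-scaled counts), and 15 and 17 for *Kpna6*-/- against WT, where edgeR called 166 and 133, 349 and 275 without a filter, 40 and 31 on length-scaled counts, 354 and 164 without WT replicate 1 and 49 and 43 without *Kpna6*-/- replicate 1. DESeq2 called 0 of the 2 Leydig cell markers and not *Tbcb*. Restricted to protein-coding transcripts, the levels of *Tuba1b* and *Tubb5* in WT were 50.4 and 23.3 TPM.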
